A study of Mus musculus with 12 samples.

Results

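Star and 9 other genes of intracellular cholesterol handling were followed through cultured mouse islets, the hormone-secreting clusters of the pancreas. The 10 genes, out of 22141 genes with counts summed from transcripts, are Star, Stard3, Stard10, Abca1, Abcg1, Npc1, Npc2, Soat1, Nr1h3 and Tspo. They were listed by name and role with earlier results of these libraries in view. Star was chosen by its log2 fold change between palmitate and vehicle in these same libraries, so that difference is described below without a test. The other 9 were listed for their place in cholesterol transport.

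Islets came from male wild-type mice aged 10 to 12 weeks and were cultured in lots of about 120 islets. The 4 groups of 3 libraries were palmitate with C3a, palmitate, vehicle with C3a, and vehicle. Palmitate is a saturated fatty acid used to load islets with lipid, and C3a is a peptide released from complement C3 that acts on the C3a receptor. Doses and times were not in the labels. The labels do not name the animal or culture behind each library either, so a p-value here speaks only of the spread among the 12 libraries sequenced.

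Cells take up cholesterol in lipoproteins, free it in lysosomes and move it on by carrier proteins. NPC2 hands cholesterol to NPC1 at the lysosomal membrane, and STARD3 links late endosomes to the endoplasmic reticulum. SOAT1 esterifies the excess for storage in droplets, and ABCA1 and ABCG1 export it. Both exporters are under oxysterol-sensing receptors, among them LXR alpha, encoded by Nr1h3. STAR brings cholesterol to the inner mitochondrial membrane, the limiting step of steroid synthesis in adrenal and gonad, and TSPO is an outer mitochondrial membrane protein that binds cholesterol. Stard10, whose protein transfers phospholipids, is highly expressed in beta cells, where it bears on insulin granules.

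Star stood apart from the other 9 in these islets. Its level per length was the lowest of the 10 genes in both vehicle groups and seventh in both palmitate groups. The other 9 differed far less between palmitate and vehicle, and C3a changed none of the 10 beyond the test threshold.

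Star lies on chromosome 8 of the GRCm38 build, at 25806555 to 25815982 on the forward strand. The annotation holds 1 transcript in the counts, of 4046 bases in 7 exons with a coding length of 852 bases. The first 90 coding bases are shown because the start of the protein holds its mitochondrial import signal. They run from chr8:25808569-25809481 across an intron, with 64 bases in the first coding exon, and the start codon is in capitals.
Star: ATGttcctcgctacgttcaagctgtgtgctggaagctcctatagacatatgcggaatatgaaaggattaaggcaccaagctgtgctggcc

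Npc2 is shown by its promoter, since it is the one of the other 9 that was higher past the threshold in both palmitate comparisons. These are the 250 bases before the RefSeq start on GRCm38.p6, chr12:84773113-84773362, read on the reverse strand.
Npc2: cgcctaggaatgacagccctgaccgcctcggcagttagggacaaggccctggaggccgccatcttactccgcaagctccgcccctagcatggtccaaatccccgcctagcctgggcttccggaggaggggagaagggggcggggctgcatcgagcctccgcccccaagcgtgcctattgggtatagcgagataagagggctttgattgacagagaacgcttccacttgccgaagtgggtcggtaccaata

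Promoter windows of 6 of the 10 genes from the RefSeq table were searched (Stard3, Stard10, Abca1, Npc2, Soat1 and Nr1h3). Those of 4 were not (Star, Abcg1, Npc1 and Tspo). Windows on chromosome 18, where Npc1 lies, were left out of this search of the 10 genes. Both strands were searched for 7 motifs in each window of 250 bases before to 50 after the start. The nuclear receptor half-site AGGTCA was in 16.3% of 32851 promoters and in 0 of the 6. The LXR-type repeat, with 2 such half-sites 4 bases apart, was in 0.015% and in 0 of the 6. The cAMP response element TGACGTCA was in 1.79% and in 0 of the 6, and its shorter core TGACG, which the full element contains, was in 20.8%, Soat1 among them. The E-box CACGTG was in 7.15%, with Abca1 the one match of the 6. The orphan receptor motif TGACCTTGA, which contains the reverse complement of the half-site, was in 0.423%, and the C/EBP motif TTGCGCAA in 0.183%, each in 0 of the 6. A match describes letters only, and no capitals stand in the Npc2 window because none of these motifs is in it.

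The libraries held 22216420 to 50264695 estimated counts. Replicate 1 of every group was in sequencing batch 1 (4 libraries, at most 26110989 counts) and replicates 2 and 3 in batch 2 (8 libraries, at least 35876350). Beta cell markers (8 of 8 measured, insulins included) summed to 134092 to 164838 CPM (counts scaled to library size) with palmitate and C3a, 144033 to 175791 with palmitate, 170732 to 191851 with vehicle and C3a, and 158867 to 184203 with vehicle, the most abundant cell markers checked in every group. Of these 8 markers, 3 (Pdx1, Slc2a2 and Ucn3) fell in both palmitate comparisons (37.5%). Of all genes tested, 25.4% passed without C3a and 26.9% with it.

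Star had 42.0, 62.7 and 46.4 CPM in islets with palmitate and C3a, and 37.8, 67.0 and 63.1 CPM in islets with palmitate alone. It had 5.55, 3.74 and 5.11 CPM with vehicle and C3a, and 5.71, 7.59 and 6.15 CPM with vehicle alone. All 6 palmitate libraries lay above all 6 vehicle libraries, with no overlap. The lowest raw count was 123, in vehicle with C3a replicate 1, and the highest 2705, in palmitate replicate 3.

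Palmitate islets averaged 56.0 ± 15.8 CPM of Star and vehicle islets 6.48 ± 0.984 CPM (SD, n = 3 each). The fitted log2 fold change was 3.09 ± 0.22 (standard error), an 8.53-fold difference with a 95% interval of 6.04 to 12.1. With C3a in both arms, palmitate islets averaged 50.4 ± 10.9 CPM and vehicle islets 4.80 ± 0.942 CPM (SD, n = 3 each), and the log2 fold change was 3.42 ± 0.23, a 10.7-fold difference with an interval of 7.46 to 15.3. These standard errors and intervals describe the spread between libraries. They are no test and take no account of the choice of Star by this same difference, which favours a large value. Star ranked 18 of 15794 tested genes by log2 fold change without C3a and 26 of 15794 with it.

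The difference between same-numbered libraries was 2.72, 3.13 and 3.35 on the log2 scale for palmitate over vehicle, and 2.91, 4.05 and 3.17 for palmitate with C3a over vehicle with C3a. Every pair showed palmitate higher. The largest pair difference, in replicate 2 with C3a, holds the lowest vehicle value of the 12 libraries.

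**Figure D1:**
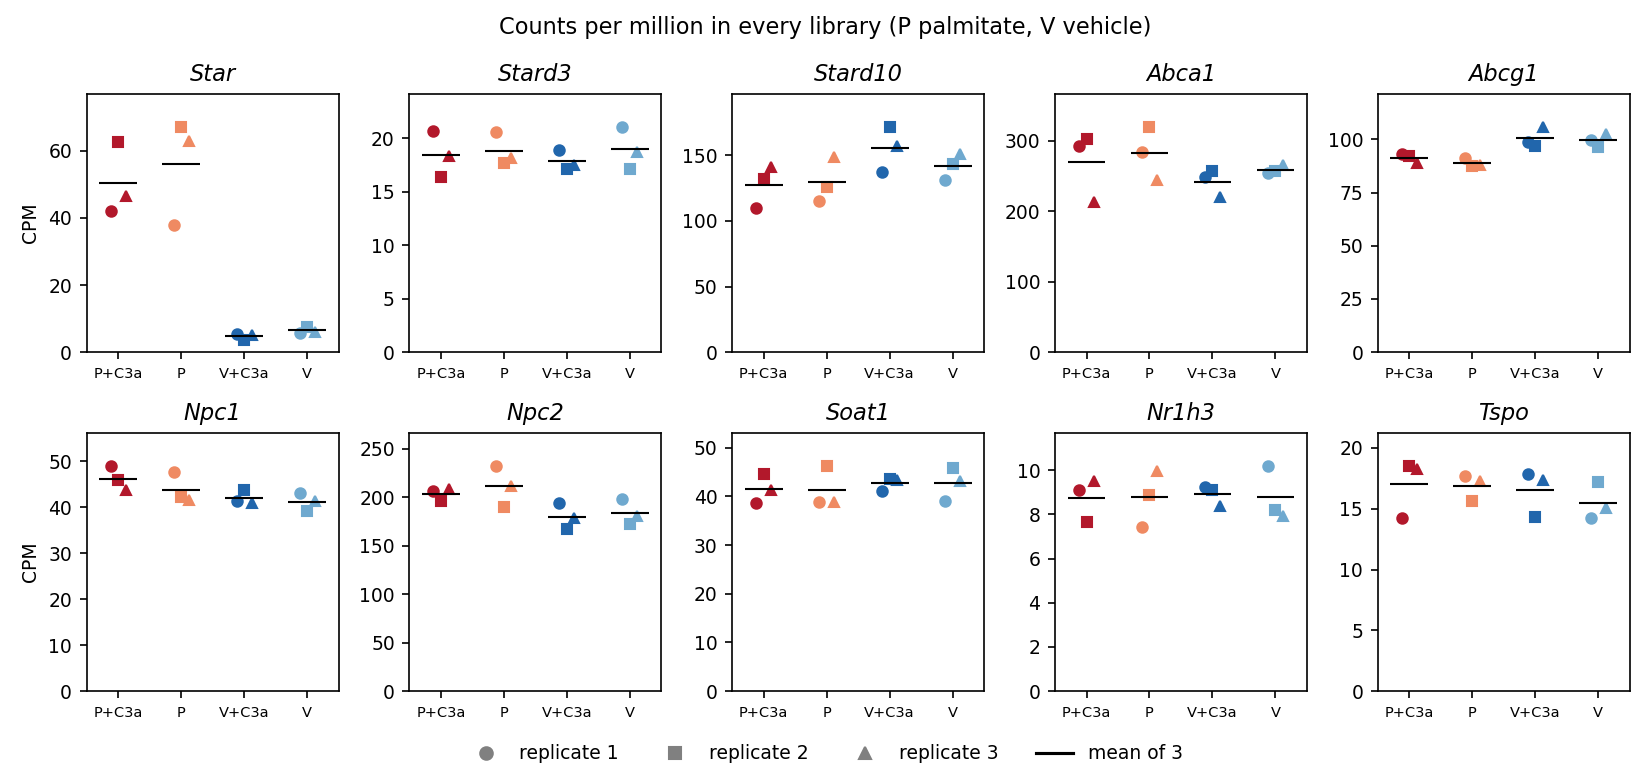
Level of each of the 10 genes in every library, in CPM on a separate axis for each gene, with groups from left to right palmitate with C3a, palmitate, vehicle with C3a and vehicle. Points are libraries, with a symbol for each replicate number, and lines are group means. Star is at 37.8 to 67.0 CPM in the 6 palmitate libraries and at 3.74 to 7.59 CPM in the 6 vehicle libraries.

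Levels were compared between genes per length, as TPM (counts over annotated transcript length, scaled to the same sum in each library). Star averaged 18.6 ± 3.63 TPM with palmitate and C3a, 20.1 ± 5.29 TPM with palmitate, 1.71 ± 0.299 TPM with vehicle and C3a, and 2.37 ± 0.425 TPM with vehicle (SD, n = 3 each). Among genes with TPM above 0, Star lay above 73.4% of 20321 with palmitate and C3a, 75.3% of 20153 with palmitate, 40.3% of 19939 with vehicle and C3a, and 43.7% of 20282 with vehicle. It was thus a low-level transcript in vehicle islets and a middle-level one of the 10 genes in palmitate islets.

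In vehicle islets the order by mean TPM was Stard10 at 170.6, Npc2 at 82.2, Abca1 at 38.2, Tspo at 27.4, Abcg1 at 25.5, Soat1 at 21.4, Stard3 at 14.1, Npc1 at 11.7, Nr1h3 at 7.48 and Star at 2.37. The neighbours Tspo and Abcg1, and Abcg1 and Soat1, had overlapping ranges and did not differ beyond their spread. In palmitate islets Star stood between Soat1, at 20.7 ± 2.45 TPM, and Stard3, at 14.1 ± 1.97 TPM (SD, n = 3 each), and overlapped both. With palmitate and C3a it again overlapped both, at 21.7 ± 1.54 TPM for Soat1 and 14.2 ± 2.53 TPM for Stard3 (SD, n = 3 each). With each gene's longest transcript as its length, Star stood sixth in place of seventh in both palmitate groups.

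**Figure D2:**
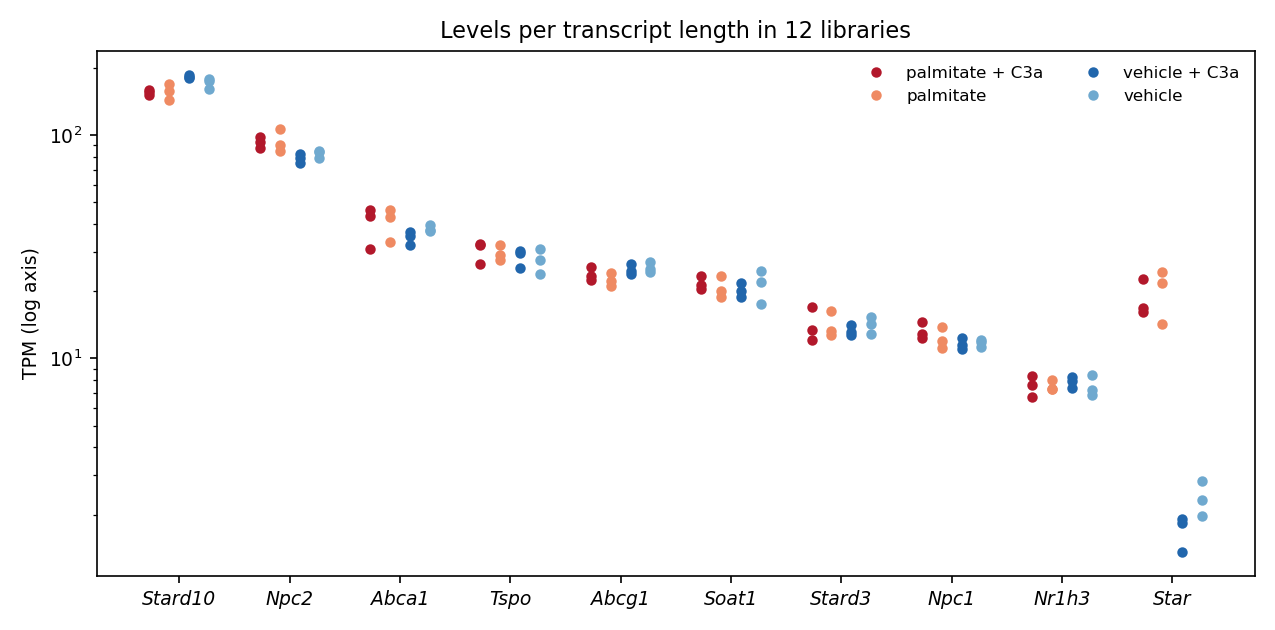
TPM of the 10 genes on a log axis, 1 point for each library, with groups from left to right within a gene palmitate with C3a, palmitate, vehicle with C3a and vehicle, and genes ordered by their vehicle mean. Star averages 18.6 TPM with palmitate and C3a and 20.1 TPM with palmitate, seventh of the 10 in both, and 1.71 TPM with vehicle and C3a and 2.37 TPM with vehicle, the lowest of the 10 in both.

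Without Star, 2 of 9 genes passed the test between palmitate and vehicle (22.2%), when 25.4% of all 15794 genes tested did. With C3a in both arms, 3 of 9 passed (33.3%), against 26.9% of all genes tested. Both shares lie near the background, so the list as such did not stand out. The median log2 fold change of the 9 was 0.02 without C3a and 0.04 with it, against -0.02 and 0.01 over all genes tested. All 10 genes passed the filter on low counts. Leaving out 1 library gave 0 to 2 called genes without C3a and 1 to 3 with it. With no batch term in the model, or in batch 2 alone, 0 of the 9 passed in either comparison.

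Among the lysosomal pair, Npc2, the soluble carrier in the lysosome, had 207, 196 and 209 CPM with palmitate and C3a and 194, 168 and 178 CPM with vehicle and C3a. It had 232, 190 and 212 CPM with palmitate and 199, 172 and 181 CPM with vehicle. The C3a-treated groups did not overlap, while palmitate replicate 2 lay within the vehicle range. Npc2 rose by 0.20 ± 0.06 on the log2 scale between palmitate and vehicle (edgeR adjusted p = 0.0223), and by 0.18 ± 0.06 with C3a in both arms (edgeR adjusted p = 0.0307). In edgeR, the call without C3a was lost on leaving out palmitate replicate 1 or 3 or vehicle replicate 1 or 2, with an adjusted p of 0.0568 to 0.103. The call with C3a was lost without palmitate with C3a replicate 2 or 3, vehicle with C3a replicate 1 or 2, or vehicle replicate 3, with an adjusted p of 0.0512 to 0.124 in edgeR, and with no filter on low counts the adjusted p was 0.0513.

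Npc1, the membrane protein that receives cholesterol from NPC2, had 49.0, 45.9 and 43.7 CPM with palmitate and C3a, 47.7, 42.3 and 41.5 CPM with palmitate, 41.4, 43.9 and 41.0 CPM with vehicle and C3a, and 43.1, 39.2 and 41.3 CPM with vehicle. The groups overlapped. Its log2 fold change was 0.09 ± 0.05 without C3a (edgeR adjusted p = 0.272) and 0.13 ± 0.05 with C3a (edgeR adjusted p = 0.101). Its exons overlap Rmc1, which held 12617 counts in all and lies on the other strand, so the split of reads between them is uncertain.

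Abcg1, an exporter to high-density lipoprotein, had 93.1, 92.1 and 88.8 CPM with palmitate and C3a and 99.0, 97.1 and 106 CPM with vehicle and C3a. It had 91.4, 87.4 and 87.9 CPM with palmitate and 99.7, 96.5 and 103 CPM with vehicle. All 6 palmitate libraries lay below all 6 vehicle libraries. Abcg1 fell by 0.16 ± 0.05 on the log2 scale between palmitate and vehicle, a 0.892-fold level (edgeR adjusted p = 0.0209), and by 0.14 ± 0.05 with C3a, a 0.908-fold level (edgeR adjusted p = 0.0416).

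Both Abcg1 calls were close to the threshold. The call without C3a was lost in edgeR on leaving out any palmitate replicate or vehicle replicate 1 or 3, with an adjusted p of 0.0561 to 0.132. With C3a it remained past the threshold in 2 of 12 such fits, those without palmitate replicate 2 or vehicle with C3a replicate 2, and the adjusted p ran from 0.0462 to 0.176 over the 12 in edgeR.

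Abca1, which exports cholesterol to lipid-poor apolipoprotein A-I, had 293, 302 and 213 CPM with palmitate and C3a, 284, 319 and 244 CPM with palmitate, 249, 256 and 220.3 CPM with vehicle and C3a, and 254, 257 and 265 CPM with vehicle. Replicate 3 was the lowest of 3 in each group but vehicle, and the groups overlapped. Its log2 fold change was 0.12 ± 0.13 without C3a (edgeR adjusted p = 0.561) and 0.15 ± 0.13 with it (edgeR adjusted p = 0.46), with a 95% interval of -0.18 to 0.43 without C3a. Nr1h3, which encodes a receptor that acts on both exporters, had 7.43 to 9.98 CPM in the 6 palmitate libraries and 7.93 to 10.2 CPM in the 6 vehicle libraries. Its log2 fold change was 0.02 ± 0.13 without C3a (edgeR adjusted p = 0.944).

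Stard10 had 109.9, 132 and 141 CPM with palmitate and C3a and 138, 171 and 157 CPM with vehicle and C3a. It had 115, 126 and 149 CPM with palmitate and 131, 144 and 151 CPM with vehicle. Both pairs of groups overlapped, the first through palmitate with C3a replicate 3 and vehicle with C3a replicate 1, which are from different batches. With batch in the model Stard10 fell by 0.28 ± 0.06 on the log2 scale with C3a in both arms, a 0.821-fold level (edgeR adjusted p = 0.00656). Without C3a the log2 fold change was -0.13 ± 0.06 (edgeR adjusted p = 0.171). The difference between these effects, the interaction, was -0.16 ± 0.09 with a 95% interval of -0.35 to 0.04 (edgeR unadjusted p = 0.112).

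The call for Stard10 with C3a was kept in all 12 fits that left out 1 library. Without C3a it became called on leaving out palmitate replicate 3.

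None of Stard3, Soat1 and Tspo passed the test in either palmitate comparison. Stard3 had 16.4 to 20.6 CPM in the 6 palmitate libraries and 17.1 to 21.0 CPM in the 6 vehicle libraries, with a log2 fold change of -0.01 ± 0.06 without C3a (edgeR adjusted p = 0.947). Soat1 had 38.6 to 46.2 CPM with palmitate and 39.0 to 45.8 CPM with vehicle over the same libraries, with a log2 fold change of -0.05 ± 0.06 without C3a (edgeR adjusted p = 0.642). Tspo had 14.2 to 18.5 CPM with palmitate and 14.2 to 17.9 CPM with vehicle, with a log2 fold change of 0.12 ± 0.12 without C3a (edgeR adjusted p = 0.525). The 95% intervals were -0.14 to 0.13 for Stard3, -0.19 to 0.09 for Soat1 and -0.14 to 0.37 for Tspo. Tspo exons overlap Mcat on the other strand, which held 5539 counts in all, so Tspo counts are uncertain in part.

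**Figure D3:**
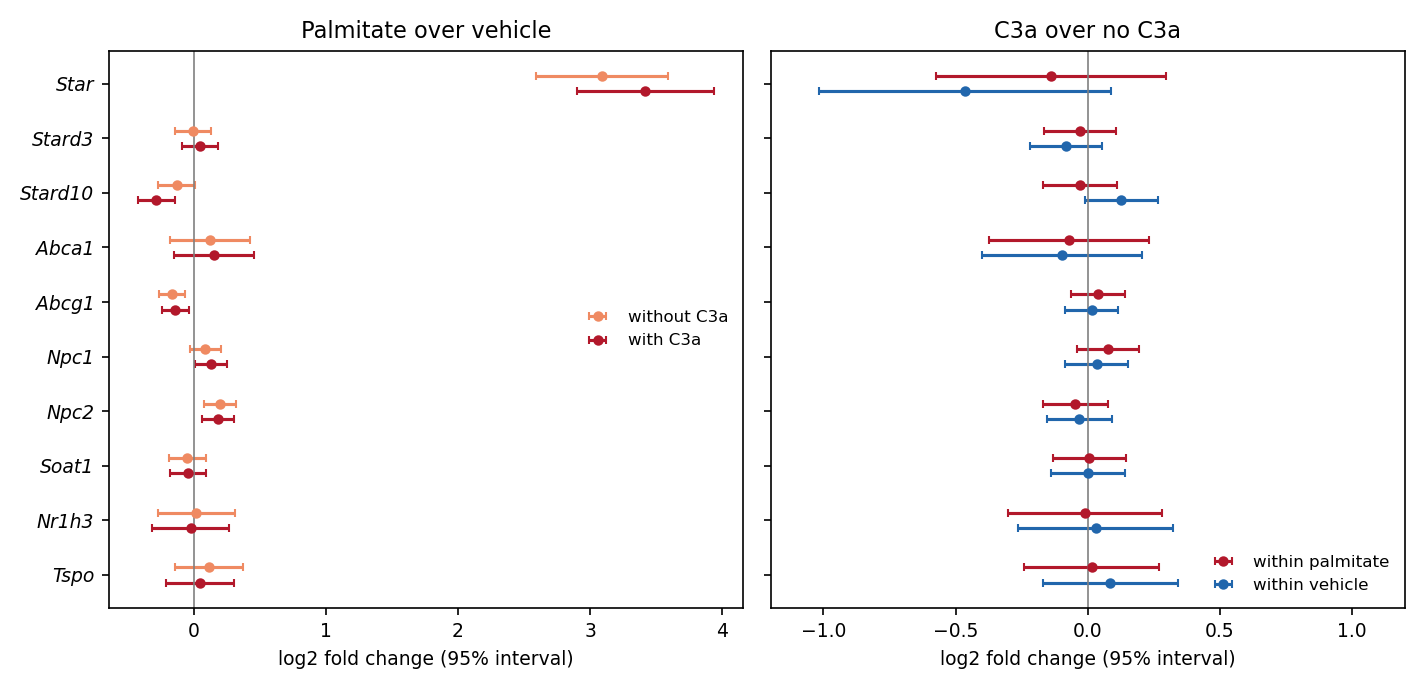
Log2 fold changes of the 10 genes with 95% intervals, palmitate over vehicle on the left and C3a over no C3a on the right. Star is at 3.42 for palmitate over vehicle with C3a and at 3.09 without it, while the other 9 genes lie between -0.28 and 0.20 in both.

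The C3a arm was compared with its untreated partner at each fatty acid state. Of 15794 genes, 0 passed in edgeR within palmitate (0%) and 0 within vehicle (0%), with 430 and 347 genes at an unadjusted p under 0.05, and DESeq2 called 2 and 15 genes, none of the 10 among them. Star averaged 50.4 ± 10.9 CPM with palmitate and C3a and 56.0 ± 15.8 CPM with palmitate (SD, n = 3 each), and the log2 fold change was -0.14 ± 0.19 with an interval of -0.57 to 0.30. Within vehicle, all 3 libraries with C3a (3.74 to 5.55 CPM) lay below all 3 without (5.71 to 7.59 CPM). Star was the 1 gene of the 10 without overlap in this comparison, and the share over all genes was not counted. The log2 fold change was -0.46 ± 0.24 with an interval of -1.02 to 0.09 and an unadjusted p of 0.0899 in edgeR.

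The same-numbered differences of Star for vehicle with C3a over vehicle were -0.04, -1.01 and -0.27, so replicate 2 carried most of that difference. For palmitate with C3a over palmitate they were 0.15, -0.10 and -0.44, which differ in sign. The other 9 genes had log2 fold changes of -0.07 to 0.08 within palmitate and -0.10 to 0.13 within vehicle, none past the threshold.

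The interaction asked whether the palmitate effect differed with C3a. For Star it was 0.33 ± 0.31 with an interval of -0.38 to 1.03, so a difference of either sign within that interval was not detectable here. Of 15794 genes, 0 passed in edgeR (0%), with 251 at an unadjusted p under 0.05 and 0 in DESeq2. The lowest unadjusted p of the 10 in edgeR was 0.112, for Stard10.

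Transcripts within a gene were shared out in the deposited counts, and 3 of the 10 genes held patterns of their own. These were picked after the values were seen. Soat1 has a transcript with a long last exon, Soat1-207 (8371 bases, last exon 6591), and Soat1-201 with a last exon of 1323 bases, both with a coding length of 1620. Soat1-207 took 31.8% ± 0.99 of Soat1 counts with palmitate and C3a and 36.5% ± 1.80 with vehicle and C3a (SD, n = 3 each). It took 31.5% ± 0.51 with palmitate and 38.9% ± 1.24 with vehicle (SD, n = 3 each).

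All 6 palmitate libraries (31.1% to 32.9%) lay below all 6 vehicle libraries (34.5% to 40.0%) in this share. The difference was -4.72 percentage points with C3a and -7.39 without. Each had a two-sided exact permutation p of 0.1, the smallest that 3 against 3 libraries allow. The transcript was picked after its values were seen, and groups without overlap always give this p. The p is therefore no test of the difference, which is given as a description only. The Soat1 total did not pass the test, as given above.

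Stard10 counts went to different transcripts by sequencing batch. Stard10-201 took 0% to 0.787% of them in the 4 libraries of batch 1 and 70.6% to 91.0% in the 8 of batch 2, in every treatment. Stard10-203 took 32.5% to 39.2% in batch 1 and 0% to 3.06% in batch 2, and Stard10-204 took 27.2% to 32.9% and 1.13% to 12.7%. Stard10-201 and Stard10-203 have the same coding length of 873 bases and different first exons. The batches hold all 4 groups alike, and the part of this split in the Stard10 gene total was not tested. In Nr1h3, Nr1h3-208, annotated as a retained intron, took 41.0% to 71.7% of the counts. Much of the Nr1h3 count was thus assigned to a transcript not annotated as coding. This split is an estimate, and the coding Nr1h3-201 took 0% to 30.1%.

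**Figure D4:**
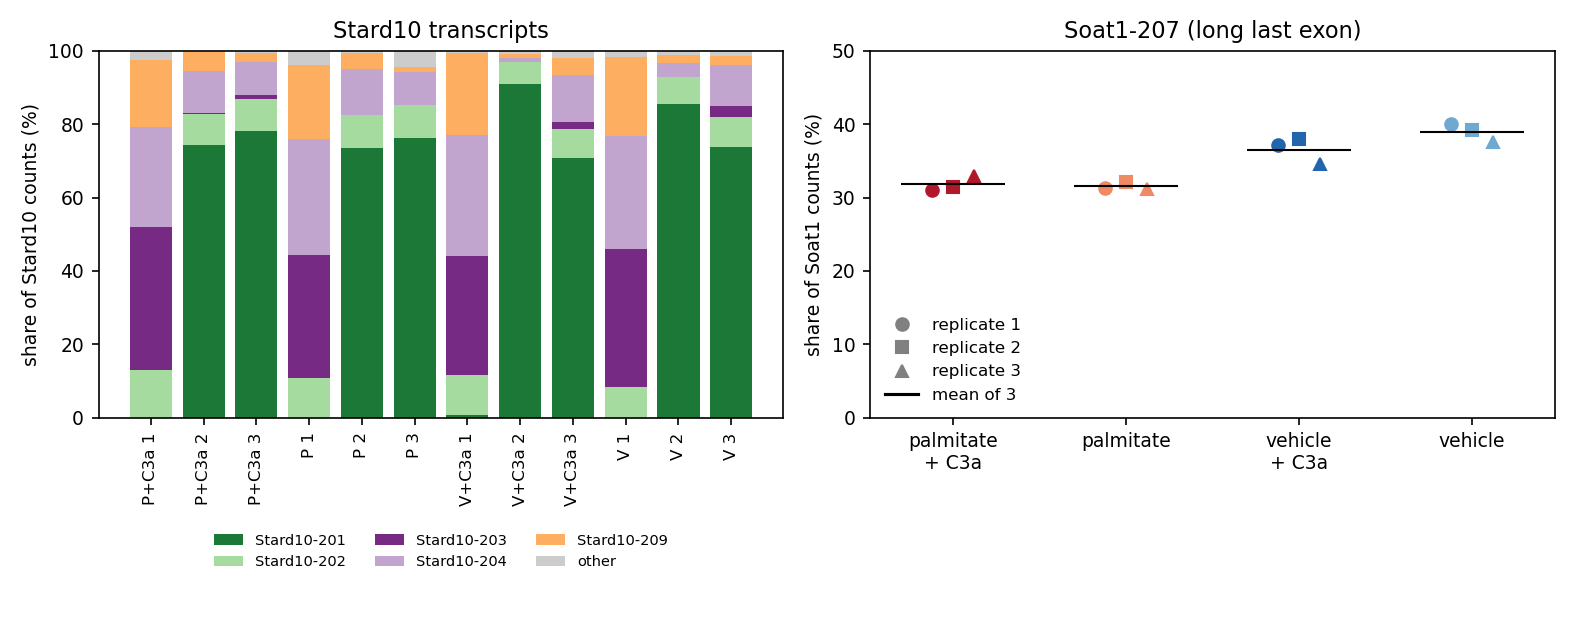
Share of gene counts, in percent, given to single transcripts in every library, as stacked bars for Stard10 on the left and as points with group means for Soat1-207 on the right, with palmitate groups left of vehicle groups. Soat1-207 is at 31.1% to 32.9% in the 6 palmitate libraries and 34.5% to 40.0% in the 6 vehicle libraries, and Stard10-201 is at 0.787% or less in batch 1 and 70.6% or more in batch 2.

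Wider lists of the same pathways were counted in the fit of all genes, the 10 genes left out. Of these 9 lists, the regulators of Star known from steroid-making cells and the genes of mitochondrial cholesterol use held the highest shares of called genes without C3a. With C3a this order changed: mitochondrial cholesterol use held 62.5%, SREBP2 and synthesis 60% and the Star regulators 59.1%. Every list named here was written with earlier results of these libraries known, and their counts are read against the 25.4% (13.4% higher, 12% lower) and, with C3a, the 26.9% (13.8% higher, 13.1% lower) of all genes that passed. Where a pair of log2 fold changes follows a gene, the first is for palmitate over vehicle and the second for palmitate with C3a over vehicle with C3a.

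Among regulators of Star known from steroid-making cells, 9 rose and 3 fell of 22 tested between palmitate and vehicle (54.5%), and 10 rose and 3 fell with C3a in both arms (59.1%). Nr4a1, an orphan nuclear receptor that binds the Star promoter in Leydig cells, had 27.3, 37.1 and 30.0 CPM with palmitate and C3a, 28.7, 38.7 and 30.2 CPM with palmitate, 10.2, 15.8 and 10.9 CPM with vehicle and C3a, and 8.52, 14.7 and 9.24 CPM with vehicle. All 6 palmitate libraries lay above all 6 vehicle libraries. Nr4a1 rose by 1.59 ± 0.20 on the log2 scale without C3a (edgeR adjusted p = 0.000448) and by 1.36 ± 0.20 with it (edgeR adjusted p = 0.000935).

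Nr4a2 of the same receptor family rose by 0.91 ± 0.08 without C3a and 0.89 ± 0.09 with it. Crem, a cAMP-responsive factor, rose by 0.80 ± 0.09 and 0.74 ± 0.09, and Sik1, a kinase that acts on the CREB coactivators, rose by 0.91 ± 0.13 and 1.07 ± 0.13. Prkar1a, a regulatory subunit of protein kinase A, rose by 0.51 ± 0.08 and 0.45 ± 0.08. Prkaca, a catalytic subunit of the same kinase, fell by 0.25 ± 0.04 with C3a in both arms (edgeR adjusted p = 0.00089). Prkaca was also called lower without C3a, a call kept in 8 of 12 fits that left out 1 library. Nr4a3 rose by 1.85 ± 0.29 without C3a (edgeR adjusted p = 0.000833), and its log2 fold change was 0.63 ± 0.29 with it (edgeR adjusted p = 0.137). The list's median log2 fold change was 0.29 without C3a and 0.31 with it.

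Among genes of mitochondrial cholesterol use, 8 rose and 1 fell of 16 tested without C3a (56.3%), and 9 rose and 1 fell with it (62.5%). Lonp1, a mitochondrial protease that degrades STAR among other proteins, rose by 0.83 ± 0.10 without C3a (edgeR adjusted p = 0.000216) and 0.97 ± 0.10 with it (edgeR adjusted p = 7.26e-05). The outer membrane channel Vdac3 rose by 0.41 ± 0.05 and 0.38 ± 0.05, and the inner membrane ATPase Atad3a by 0.40 ± 0.08 and 0.49 ± 0.08. Fdx1, the electron carrier of mitochondrial P450 enzymes, rose by 0.36 ± 0.08 without C3a (edgeR adjusted p = 0.00433). Fdx1 was also called higher with C3a, a call kept in 9 of 12 fits that left out 1 library. Tspoap1, which binds TSPO, fell by 0.46 ± 0.11 and 0.56 ± 0.11.

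The enzyme that acts on cholesterol next after STAR in steroid synthesis, Cyp11a1, stayed at or below 0.222 CPM in all 12 libraries, with 39 counts in all. Nr5a1, the main activator of Star in adrenal and gonad, stayed at or below 0.0663 CPM, with 6 counts in all. Of 8 markers of steroid-making cells, 5 were in the table and 4 of those stayed under 1 CPM throughout. Their sum was 0.718 to 1.29 CPM with palmitate and C3a, 0.629 to 1.54 CPM with palmitate, 0.628 to 0.884 CPM with vehicle and C3a, and 0.655 to 1.28 CPM with vehicle, with overlapping groups. Cyp11a1 and Nr5a1 were thus near 0 in the libraries where Star was high. Cyp17a1, the 1 of these markers that was tested, was not called in either palmitate comparison. Hsd3b2, from the list of mitochondrial cholesterol use, rose past the threshold with C3a in both arms and was not called without C3a. That call was kept in all 12 fits that left out 1 library and lost with no batch term.

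In the START family, which shares the lipid-binding fold of STAR, 3 rose and 3 fell of 13 tested without C3a (46.2%), and 3 rose and 2 fell with it (38.5%). Acot12, an acetyl-CoA thioesterase with a START domain, had 0.997, 1.55 and 0.852 CPM with palmitate and C3a, 1.03, 1.65 and 1.38 CPM with palmitate, 0.0902, 0.349 and 0.111 CPM with vehicle and C3a, and 0.124, 0.286 and 0.304 CPM with vehicle. It was a rare transcript in all 12 libraries, with no overlap between the palmitate and vehicle groups. Acot12 rose by 2.47 ± 0.42 without C3a (edgeR adjusted p = 0.00128) and 2.60 ± 0.44 with it (edgeR adjusted p = 0.00118). Stard5, a cytosolic sterol carrier, rose by 0.45 ± 0.10 and 0.57 ± 0.10, and Col4a3bp, the ceramide carrier, fell by 0.33 ± 0.07 and 0.38 ± 0.07.

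For uptake and lysosomal exit, 6 rose and 1 fell of 15 tested in each comparison (46.7%), and with C3a the count of 7 became 4 without vehicle with C3a replicate 1. Scarb2, a lysosomal membrane protein with a cholesterol tunnel, rose by 0.59 ± 0.06 in both comparisons (edgeR adjusted p = 7.83e-05 without C3a and 6.43e-05 with it). Lamp2, another lysosomal membrane protein, rose by 0.33 ± 0.05 and 0.29 ± 0.05, and the lipoprotein receptor Vldlr by 0.39 ± 0.10 and 0.52 ± 0.10. Sort1, a sorting receptor, fell by 0.44 ± 0.05 and 0.51 ± 0.05.

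In the list of efflux genes and LXR targets, 2 rose and 3 fell of 19 tested in each comparison (26.3%), near the background. Nr1h2, which encodes LXR beta, was tested in this list and not called in either comparison. The targets moved both ways. Lpcat3, a phospholipid acyltransferase, rose by 0.43 ± 0.04 and 0.40 ± 0.04, and Mylip, the ligase that degrades lipoprotein receptors, by 0.45 ± 0.08 and 0.49 ± 0.08. Srebf1, which encodes SREBP1, fell by 0.34 ± 0.05 and 0.38 ± 0.05, and the transporter Abca7 by 0.49 ± 0.07 and 0.40 ± 0.07.

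For ester formation and hydrolysis, 2 rose and 0 fell of 7 tested in each comparison (28.6%). Plin2, a lipid droplet coat protein, had 123, 109.3 and 97.7 CPM with palmitate and C3a, 133, 94.7 and 109.6 CPM with palmitate, 33.1, 27.6 and 33.7 CPM with vehicle and C3a, and 28.8, 32.4 and 34.5 CPM with vehicle. It rose by 1.80 ± 0.13 in both comparisons (edgeR adjusted p = 1.41e-05 without C3a and 1.21e-05 with it). Nceh1, a cholesteryl ester hydrolase, rose by 0.25 ± 0.05 and 0.27 ± 0.05.

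Among oxysterol enzymes, 1 rose of 7 tested without C3a (14.3%) and 2 with it (28.6%), with 0 lower. The second count became 1 without vehicle with C3a replicate 1 or 2. Hsd3b7, a dehydrogenase of bile acid synthesis that acts on oxysterols, had 51.5, 43.0 and 33.8 CPM with palmitate and C3a, 48.5, 42.0 and 41.1 CPM with palmitate, 18.7, 15.0 and 17.9 CPM with vehicle and C3a, and 18.5, 16.1 and 16.6 CPM with vehicle. The palmitate and vehicle libraries did not overlap. Hsd3b7 rose by 1.36 ± 0.10 without C3a (edgeR adjusted p = 6.89e-06) and 1.30 ± 0.10 with it (edgeR adjusted p = 7.33e-06). Cyp27a1, the mitochondrial sterol hydroxylase, had a log2 fold change of 0.31 ± 0.34 without C3a (edgeR adjusted p = 0.572).

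In nonvesicular sterol transfer, 3 rose and 4 fell of 19 tested without C3a (36.8%), and 2 rose and 6 fell with it (42.1%). Osbpl5, a lipid exchanger of the oxysterol-binding protein family, fell by 0.38 ± 0.05 and 0.49 ± 0.05. Gramd1b, which takes cholesterol from the plasma membrane, rose by 0.49 ± 0.09 with C3a in both arms (edgeR adjusted p = 0.00152). Its relative Gramd1a fell by 0.25 ± 0.05 without C3a (edgeR adjusted p = 0.00276). Both were also called in the other comparison, Gramd1b higher and Gramd1a lower. Those calls were kept in 9 and 8 of 12 fits that left out 1 library. The counts of called genes in this list rest on single libraries. The count without C3a became 3 genes without palmitate replicate 1 or vehicle replicate 1. The count with C3a became 4 or 5 without any 1 library of its own 6. In the list of SREBP2 and cholesterol synthesis, 4 rose and 4 fell of 20 without C3a (40%), and 5 rose and 7 fell with it (60%). Sqle and Msmo1 rose by 0.32 ± 0.05 and 0.30 ± 0.06 without C3a, while Srebf2 fell by 0.24 ± 0.05 in the same comparison.

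Of the 57 list calls without C3a, 37 held whichever 1 of the 12 libraries was left out, and of 64 with C3a 40 did. None of these list genes was called in either C3a comparison or in the interaction.

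**Figure D5:**
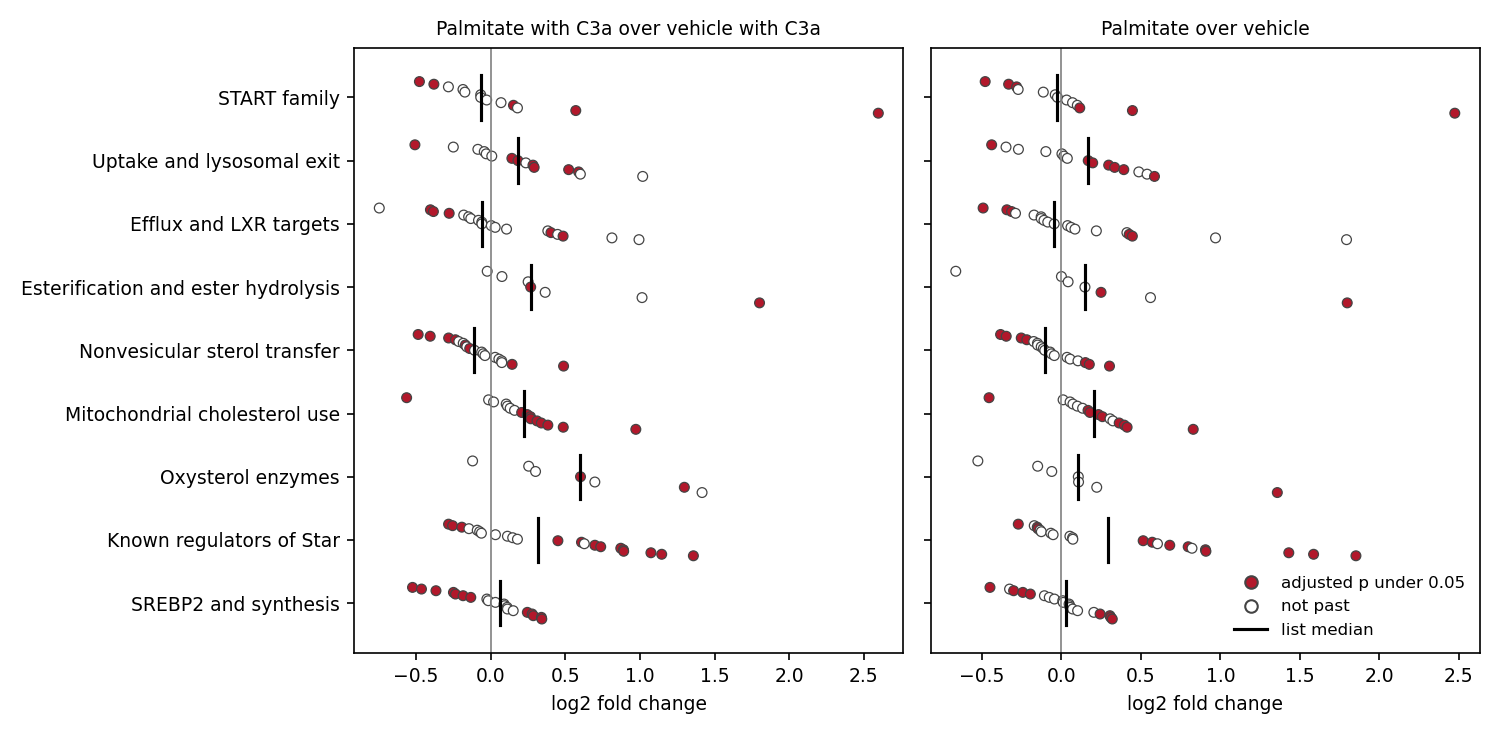
Log2 fold changes of single genes in 9 lists, palmitate with C3a over vehicle with C3a on the left and palmitate over vehicle on the right, with genes at an adjusted p under 0.05 filled in red and list medians as bars. The lists of Star regulators and of mitochondrial cholesterol use have medians of 0.31 and 0.23 with C3a and 0.29 and 0.21 without it.

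The genes whose pattern over the 12 libraries was most like that of Star were Phf10, Atf4, Aars, Ttyh1, Sars, Syt5, Bex2 and Hap1. Likeness was Pearson's r of log2 CPM with the batch mean removed, among 13378 genes, and r was 0.992 to 0.994 for these 8. The libraries fall into a palmitate and a vehicle set, so r is given as a description, with no p. Ttyh1 averaged 174 CPM with palmitate and C3a, 197 CPM with palmitate, 31.8 CPM with vehicle and C3a, and 40.3 CPM with vehicle, the largest of the 8 as a fold change, with log2 values of 2.46 with C3a and 2.28 without. Without the removal of the batch mean 3 of the 8 were named again, and likewise 3 within batch 2. Among the 10 genes, r with Star was 0.84 for Npc2, 0.60 for Npc1, -0.84 for Stard10 and -0.89 for Abcg1, with the other 5 between -0.30 and 0.43.

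Markers of other cells are read against the 25.4% of all genes tested that passed without C3a and the 26.9% with it. The endothelial share was 77.8% without C3a and 33.3% with it, the fibroblast and pericyte share 33.3% and 11.1%. The alpha cell share was 20% and 40%. The macrophage and duct shares, 16.7% in each comparison, lay below those of all genes. Of 9 endothelial markers, 7 fell between palmitate and vehicle and 3 with C3a in both arms, and their sum was 143 to 254 CPM with palmitate and C3a, 134 to 243 CPM with palmitate, 226 to 312 CPM with vehicle and C3a, and 245 to 338 CPM with vehicle. Of 12 macrophage markers, 1 rose (Cd68) and 1 fell (C1qa) in each comparison, and the sum was 251 to 485 CPM with palmitate and C3a, 263 to 349 CPM with palmitate, 328 to 353 CPM with vehicle and C3a, and 304 to 394 CPM with vehicle. Of 9 fibroblast and pericyte markers, 3 fell without C3a and 1 with it, with sums of 200.3 to 1504 CPM with palmitate and C3a, 214 to 783 CPM with palmitate, 429 to 505 CPM with vehicle and C3a, and 357 to 712 CPM with vehicle. Of 6 duct markers, 1 rose (Spp1) in each comparison, by 0.86 ± 0.21 on the log2 scale without C3a and 1.38 ± 0.21 with it (edgeR adjusted p = 0.0175 and 0.00187). The duct sum was higher with palmitate, at 529.6 to 595 CPM with palmitate and C3a, 486 to 566 CPM with palmitate, 400.2 to 467 CPM with vehicle and C3a, and 406 to 488 CPM with vehicle, with no overlap between the C3a groups and a slight one between palmitate and vehicle. Of 5 alpha cell markers, 1 fell without C3a and 2 with it, and none of the 3 delta cell or 7 tested acinar markers passed in either comparison. The part of these cell types in the values of the 10 genes was not tested. In bulk tissue fewer cells of a type and less RNA per cell cannot be told apart.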

How the data were processed

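The authors deposited estimated counts per transcript, as whole numbers, for 12 libraries. RNA was sequenced from strand-marked messenger RNA libraries, per the labels' protocols. The submitters' processing notes name kallisto, DESeq2 and GRCm38 and give neither versions nor the step each served. The transcriptome release and strand setting were not given in the sources used here. The 35 largest values all end in 0, as rounding to 6 significant digits would give.

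Transcript identifiers were looked up in GENCODE M21, which held 69942 of 71524, and their counts were added up and rounded to give 22141 genes; the rest made up 0.581% to 0.677% of a library. The main model was edgeR's robust quasi-likelihood fit (edgeR 4.0.16, R 4.3.3) to 15794 genes that passed filterByExpr, with TMM factors of 0.967 to 1.045, terms for group and sequencing batch, and 7 residual degrees of freedom. Tests were two-sided, and "called" means a Benjamini-Hochberg adjusted p under 0.05 over all genes tested. Standard errors are the absolute log2 fold change over the square root of F. The share of all genes without overlap between groups was not counted, so every statement of no overlap is a description. The fit was also run on simulated counts with known changes. That simulation held no batch effect, so it does not bear on the batch term, and no result here rests on it.

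The 10 genes, lists and markers were chosen with earlier results of these data known. Named list genes are those called with the smallest p, up to 5 in each direction, less those whose call rested on 1 library, plus a few defining genes picked after their values were seen. Genes like Star are the 8 with the highest r. Same-numbered libraries were taken as paired for the same-numbered differences and the replicate block. The main model has a batch term and does not pair replicates 2 and 3. Replicate 1 shares batch 1 in all groups, and column names give replicates 2 and 3 a shared date-like tag each. Deviations from group means correlated at 0.395 or more in all 18 pairs. The difference between batches enters that value. Within batch 2 the correlations were 0.08 to 0.185 over 12 pairs, with a mean of 0.114. With 2 libraries in a group, the deviations of replicates 2 and 3 mirror each other. Each replicate 2 value therefore equals its replicate 3 partner, and the 12 pairs are not separate evidence. Alternatives were DESeq2 1.42.0, its size factors, no filter, no batch term, a replicate block, batch 2 alone and leaving out each library.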

Additional observations from a re-analysis of the deposited data

How the results depend on the processing

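Star was higher with palmitate under each of the 18 alternatives. Its log2 fold change was 3.10 to 3.24 without C3a and 3.38 to 3.62 with it over the other alternatives, and 2.99 to 3.27 and 3.20 to 3.66 when 1 library was left out. The counts for the other 9 genes were less stable. Called genes numbered 2 without C3a and 3 with it, and fell to 0 and 0 with no batch term and to 0 and 0 in batch 2 alone. Leaving out 1 library gave 0 to 2 without C3a and 1 to 3 with it. With the replicate block the counts were 2 and 3, and the block changed no other call of the 10 genes. With no batch term, 1841 and 2074 of all genes were called in place of 4005 and 4246, and batch 2 alone called 2058 and 2331. Batch 2 alone has 2 libraries in a group. Among the wider lists, the counts of Star regulators were 4 and 3 with no batch term and 7 and 7 in batch 2 alone, in place of 12 and 13, and those of mitochondrial cholesterol use 3 and 5, and 5 and 7, in place of 9 and 10. With no batch term or in batch 2 alone, the adjusted p in edgeR was 0.175 and 0.13 for Npc2 and 0.0575 and 0.113 for Abcg1 without C3a, and 0.163 and 0.0806 for Stard10 with C3a. The C3a comparisons and the interaction called 0 of the 10 genes under each alternative. The place of Star by level was 6 in place of 7 with the longest transcript as length. Of the 8 genes most like Star, 3 were named with the batch mean kept and 3 in batch 2. The lowest Star count in a library was 123, and precision is limited by 3 libraries in a group.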
